A study of Mus musculus with 12 samples.

Results

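The 41 genes described here encode the machinery of DNA replication and mitosis, 22 of them acting in S phase and 19 in mitosis. They were chosen by symbol, with no threshold on their values. All 41 were found in the tables of 55401 genes, each once, and all 41 passed the filter on low counts. RNA was sequenced in bulk from migratory dendritic cells (DCs), which carry antigen from a tissue to its lymph node, sorted from the liver, duodenum or pancreas of B6 mice aged 6 to 8 weeks. Each tissue had 4 libraries, and each library pooled 2 mice. The mice differed by no genotype or treatment in the labels, so tissue is the comparison. Sorted cells were live, CD45+, CD103+ and CD11c+, with high MHC class II, without lineage markers or CD11b, the surface pattern of the migratory form of the type 1 conventional DC (cDC1).

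Cells copy their DNA once per cycle. The MCM helicase is loaded on origins by Cdc6 and Cdt1, switched on with Cdc45 and the GINS complex, and followed by polymerases that the clamp PCNA holds on the template, while ribonucleotide reductase and thymidine enzymes supply the nucleotides. Mitosis then runs on Cdk1 with cyclins A and B, the Aurora, Polo and Bub kinases, spindle motors and the anaphase-promoting complex. Replication genes are classic targets of E2F factors, and many mitosis genes are switched on later in the cycle through the CHR (cell cycle genes homology region) element together with CCAAT boxes. Conventional DCs divide as precursors and to some extent in tissues, and mature DCs divide little.

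The promoters of both groups carry the letters of these elements, so 5 stretches are printed before the measurements, each the 200 bases before the RefSeq start site in mouse build GRCm38.p6, read 5′ to 3′ on the gene's strand. Capitals mark E2F words in Mcm5 (chr8:75109309-75109508, plus strand) and Mcm6 (chr1:128359706-128359905, minus strand). They mark CHR words in Mki67 (chr7:135716380-135716579, minus strand) and Top2a (chr11:99024190-99024389, minus strand), and words of both kinds in Cdk1 (chr10:69352913-69353112, minus strand). These genes were chosen after the words had been found, to show each kind and their meeting in 1 promoter.
Mcm5: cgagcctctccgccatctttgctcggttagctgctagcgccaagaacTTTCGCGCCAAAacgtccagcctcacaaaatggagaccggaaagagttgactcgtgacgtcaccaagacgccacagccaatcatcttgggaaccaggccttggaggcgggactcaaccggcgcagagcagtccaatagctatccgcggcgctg
Mcm6: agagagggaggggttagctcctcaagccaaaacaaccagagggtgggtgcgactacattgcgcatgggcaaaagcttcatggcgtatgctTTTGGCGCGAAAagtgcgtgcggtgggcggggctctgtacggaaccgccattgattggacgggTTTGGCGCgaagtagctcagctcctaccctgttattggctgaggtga
Mki67: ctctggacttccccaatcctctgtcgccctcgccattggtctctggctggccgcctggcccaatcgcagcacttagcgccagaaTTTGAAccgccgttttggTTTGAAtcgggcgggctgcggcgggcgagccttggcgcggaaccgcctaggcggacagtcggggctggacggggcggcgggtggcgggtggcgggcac
Top2a: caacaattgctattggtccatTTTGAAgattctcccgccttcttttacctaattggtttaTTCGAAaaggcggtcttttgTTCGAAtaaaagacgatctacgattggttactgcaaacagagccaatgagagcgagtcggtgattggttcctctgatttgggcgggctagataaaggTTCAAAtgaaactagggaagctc
Cdk1: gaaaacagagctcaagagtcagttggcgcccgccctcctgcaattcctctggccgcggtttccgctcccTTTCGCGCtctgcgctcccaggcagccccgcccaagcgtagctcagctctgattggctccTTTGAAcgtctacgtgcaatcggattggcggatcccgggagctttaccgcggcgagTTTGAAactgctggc

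The E2F words searched were TTTCCCGC, TTTCGCGC, TTTGCCGC and TTTGGCGC, the CHR words TTTGAA and TTCGAA, and the CCAAT box CCAAT, each on both strands in the 250 bases before and 50 bases after each start. In Mcm5 and Mcm6 a pair of E2F words on opposite strands shares bases and is printed as 1 run of capitals. RefSeq's table held a promoter for 35 members, 19 of replication and 16 of mitosis. An E2F word occurred in 7 of the 19 replication genes (36.8%), against 1 of the 16 mitosis genes (6.2%, Cdk1) and 2.6% of the 27025 genes in the table. A CHR word occurred in 12 of the 16 mitosis genes (75.0%), against 4 of the 19 replication genes (21.1%) and 21.7% of all genes. CCAAT was found in 14 of 16 mitosis genes (87.5%) and 11 of 19 replication genes (57.9%), against 41.1% of all genes. In the bases before the start alone, E2F words were in 26.3% of the replication genes and CHR words in 50.0% of the mitosis genes, against 2.2% and 19.6% of all genes. Words of different elements shared bases in 1 case, an E2F word and a CCAAT box of Mcm7. A match is a description of letters, not a measured binding site.

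Deposited totals ran from 220899155 to 356073067 estimated counts per library (median 267576975), with duodenum 2 the deepest. No pair of libraries of 1 tissue agreed within sampling noise, so each of the 12 was counted. The defining cDC1 genes were present in all of them, with the summed level of 10 cDC1 markers at 2969 to 4680 CPM (counts over library size, with TMM scaling). Their sum in CPM was lowest in duodenum 2 (2969 CPM, against 4179 to 4680 in the other duodenum libraries) and pancreas 1 (3020 CPM, against 3244 to 4126). These libraries also sit low in CPM for many of the genes below. In TPM duodenum 2 was again lowest of its tissue (1301), but pancreas 1 (1356) was not, with pancreas 4 at 1349. In bulk RNA, fewer dividing cells and less RNA of a gene per cell cannot be told apart.

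In every library both groups of genes were expressed. Per length, in TPM (transcripts scaled for length and library size), the most abundant replication gene was Pcna, with a mean of 72.4 TPM over the 12 libraries or 13.5% of the replication sum, followed by Rrm2 at 59.96 TPM and Mcm5 at 41.9 TPM. Among mitosis genes Birc5 led at 77.0 TPM (17.1% of the mitosis sum), ahead of Ube2c at 63.8 TPM and Top2a at 57.6 TPM. The least abundant of each group were Cdc6, at 5.05 TPM, and Cenpe, a kinetochore motor, at 3.85 TPM.

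Summed over the 22 replication genes, the TPM of libraries 1 to 4 was 388, 418, 399.8 and 364 in liver, 591, 494, 815 and 701 in duodenum, and 503, 651, 616 and 503 in pancreas. The 4 liver libraries lay below all 8 others, and duodenum and pancreas overlapped. Over the 19 mitosis genes the sums were 431, 431, 287 and 295 TPM in liver, 409, 384, 534 and 518 in duodenum, and 521, 607, 514 and 480.1 in pancreas. Here the liver and pancreas libraries did not overlap, while liver 1 and liver 2 lay inside the range of duodenum. The ratio of the mitosis sum to the replication sum was 0.693, 0.777, 0.656 and 0.739 in duodenum and 1.04, 0.933, 0.835 and 0.954 in pancreas, 2 ranges that did not overlap. In liver it was 1.11, 1.03, 0.719 and 0.81, spanning both. These sums and ratios are descriptions and were given no test.

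**Figure D1:**
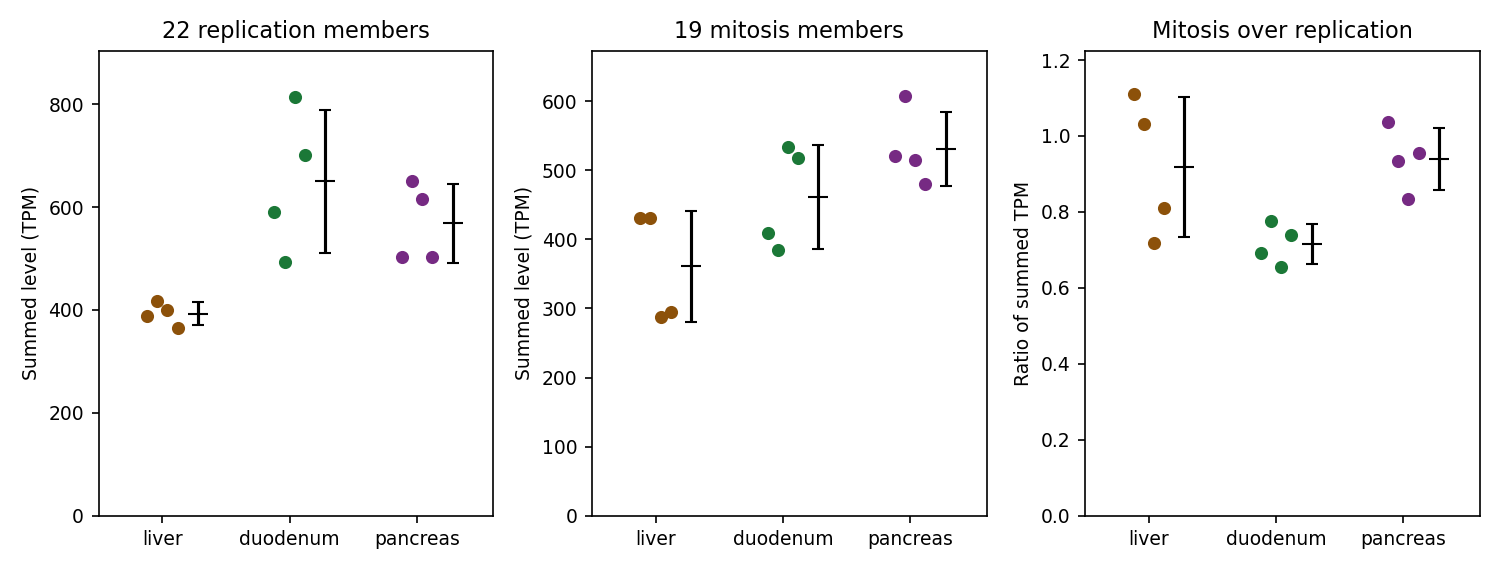
Summed level of the 22 replication genes and of the 19 mitosis genes in TPM, and the ratio of the mitosis to the replication sum, with 1 point per library and the mean ± SD of each tissue (n = 4) beside them. The replication sums of liver (364 to 418 TPM) lie below all other libraries, and the ratio separates duodenum (0.656 to 0.777) from pancreas (0.835 to 1.04).

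Liver had the lowest mean CPM of the 3 tissues for all 41 genes. In TPM the lowest mean of Ccnb1 (20.99 in liver, 20.78 in duodenum) and of Cenpf (7.75 and 6.97) was in duodenum. The highest mean was in duodenum for 16 of the 22 replication genes and in pancreas for the other 6 (Rrm2, Tk1, Cdc6, Ccne1, Pola1 and Prim1). For mitosis genes the split was 6 in duodenum and 13 in pancreas. All 3 pairs of tissues were compared, and each pair shares libraries with the other pairs, so their results are not independent of each other.

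**Figure D2:**
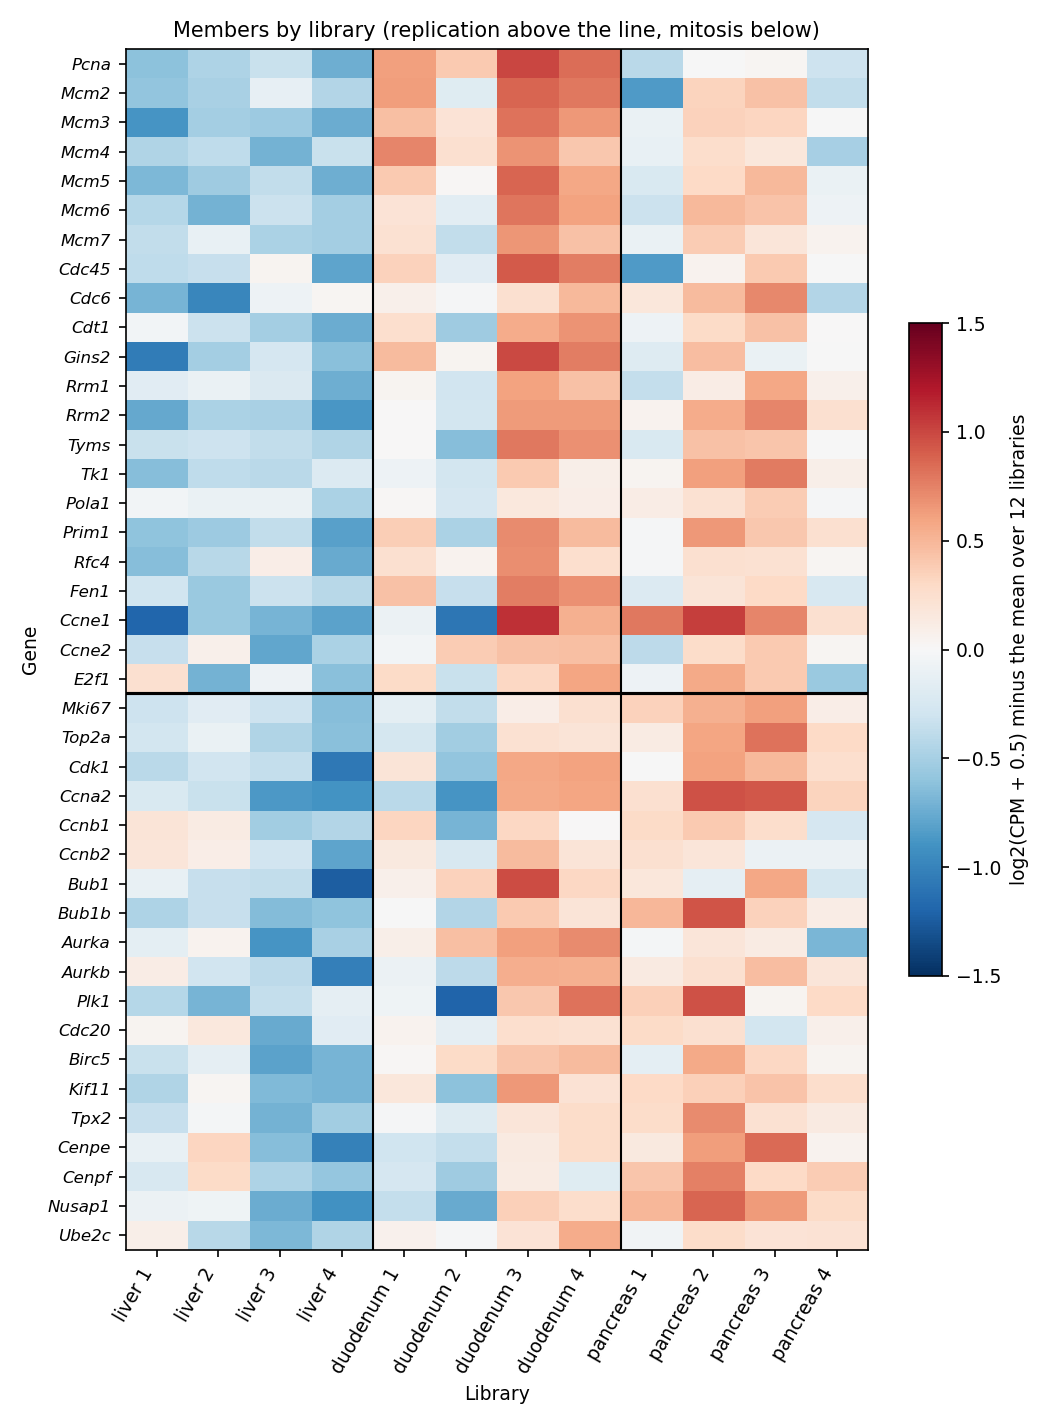
Level of each of the 41 genes in each of the 12 libraries, as log2(CPM + 0.5) minus the gene's mean over the libraries, with replication genes in the upper block and mitosis genes in the lower. Red is above and blue below that mean; liver is mostly blue in both blocks, and duodenum 2 is the lowest duodenum library for 21 of 22 replication and 16 of 19 mitosis genes.

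Of the 22 replication genes, 11 were lower in liver than in duodenum, among them most of the MCM helicase and the clamp Pcna. The test was edgeR's quasi-likelihood test with Benjamini-Hochberg adjustment over 44624 genes, with a call at an adjusted p under 0.05. It called 11 of the 22 lower and 0 higher, where 3.95% of all genes tested were called lower, 3.37% higher and 7.32% in either direction. The median log2 difference of the 22 was -0.87, with all 22 below 0, against a median of 0.10 over all genes. All 4 liver libraries lay below all 4 duodenum libraries for 7 of the 22, against 5.9% of all genes, and above them for 0, against 7.6%. Scaling by library totals in place of TMM also called 11 of the 22 lower and 0 higher. That scaling moved the median of all genes from 0.10 to 0.25, and the share of all calls that were higher in liver from 46.0% to 63.5% (35.3% with DESeq2 size factors). The calls fell on 5 of 6 MCM subunits, 4 of 5 DNA synthesis genes, 1 of 4 genes that load or activate the helicase, 1 of 4 nucleotide genes and 0 of 3 S phase regulators.

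The MCM2-7 ring is the replicative helicase. In libraries 1 to 4, Mcm3 (ENSMUSG00000041859) was at 40.7, 52.7, 51.5 and 44.8 CPM in liver, 103, 86.8, 133 and 118 CPM in duodenum and 70.3, 95.9, 94.2 and 74.9 CPM in pancreas. All liver libraries were below all others of both tissues, and the difference from duodenum was -1.22 ± 0.16, adjusted p = 0.000252. Mcm5 (ENSMUSG00000005410) stood at 64.5, 71.4, 79.4 and 61.7 CPM in liver, 136, 104, 189 and 154 CPM in duodenum and 88.3, 127, 145 and 96 CPM in pancreas. Again no liver library reached the lowest duodenum library (-1.07 ± 0.19, adjusted p = 0.00311). Mcm4 (ENSMUSG00000022673), with 32.9, 34.5, 27.2 and 35.7 CPM in liver, 74.9, 53, 72.1 and 59.9 CPM in duodenum and 41.6, 54.1, 50.8 and 31.6 CPM in pancreas, was likewise without overlap between liver and duodenum (-0.996 ± 0.18, adjusted p = 0.00275).

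For Mcm6 (ENSMUSG00000026355) the levels were 76.6, 63.1, 82.7 and 72.2 CPM in liver, 119, 92.6, 180.4 and 157 CPM in duodenum and 82.6, 145, 139 and 97.8 CPM in pancreas. Liver lay below duodenum in all libraries, with duodenum 2 nearest to it (-0.90 ± 0.22, adjusted p = 0.0202). Mcm2 (ENSMUSG00000002870) was at 36.8, 39.4, 51.1 and 40.9 CPM in liver, 86.1, 48.9, 102 and 96.3 CPM in duodenum and 30.6, 70.3, 75.5 and 43 CPM in pancreas. Liver 3 and duodenum 2 overlapped here, and the call was close to the threshold (-0.99 ± 0.28, adjusted p = 0.0432). Mcm7, the subunit that was not called, ranged over 55.8 to 73.4 CPM in liver, 61.2 to 125 CPM in duodenum, 73.7 to 103 CPM in pancreas (-0.64 ± 0.19, adjusted p = 0.0582).

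Among genes that load and start the helicase, Gins2 (ENSMUSG00000031821), a subunit of the GINS complex, was called. Its levels were 10.3, 15.1, 18.2 and 13.9 CPM in liver, 30.5, 22.3, 43.8 and 37.2 CPM in duodenum and 19, 30.1, 20.3 and 21.7 CPM in pancreas. Each liver library was below each duodenum library (-1.22 ± 0.23, adjusted p = 0.00436). The loaders Cdc6 (-0.61 ± 0.28, adjusted p = 0.242) and Cdt1 (-0.71 ± 0.24, adjusted p = 0.102) and the helicase cofactor Cdc45 (-0.88 ± 0.28, adjusted p = 0.0784) were not called.

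Pcna (ENSMUSG00000027342), the sliding clamp, had the lowest adjusted p of the 41 genes. It was at 52, 58.1, 63.2 and 47.8 CPM in liver, 123, 106, 161 and 143 CPM in duodenum and 60.3, 79.6, 81.9 and 64.4 CPM in pancreas. Duodenum stood above both other tissues in every library, with means of 133 ± 24 CPM in duodenum and 55.3 ± 6.79 CPM in liver (SD, n = 4 each). The difference was -1.27 ± 0.16, adjusted p = 0.000169. Prim1 (ENSMUSG00000025395), the primase that starts each new strand, was at 12.8, 13.3, 15.1 and 11 CPM in liver, 25.6, 14.1, 32.6 and 27.7 CPM in duodenum and 19.5, 31.3, 26.2 and 23.3 CPM in pancreas. The ranges met only through duodenum 2 (-0.94 ± 0.23, adjusted p = 0.0211).

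Fen1 (ENSMUSG00000024742), the nuclease that trims Okazaki fragments, was at 36.5, 30.6, 36 and 33.8 CPM in liver, 61.3, 35.3, 77.3 and 73.1 CPM in duodenum and 39, 51.6, 55.8 and 38 CPM in pancreas. Duodenum 2 again lay inside the range of liver (-0.85 ± 0.21, adjusted p = 0.0244). Rfc4 (ENSMUSG00000022881), part of the clamp loader, was at 13.4, 15.7, 22.7 and 12.3 CPM in liver, 25.1, 22, 34.6 and 25.3 CPM in duodenum and 21, 25.1, 24.8 and 21.6 CPM in pancreas, also with overlap (-0.74 ± 0.20, adjusted p = 0.0355). Pola1, the catalytic subunit of the priming polymerase, was not called (-0.19 ± 0.15, adjusted p = 0.572).

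Of the nucleotide enzymes, Rrm2 (ENSMUSG00000020649), the small subunit of ribonucleotide reductase, was lower in liver. It was at 66.6, 81.8, 80.8 and 61.6 CPM in liver, 114, 93.8, 177 and 178 CPM in duodenum and 118, 167, 189 and 134 CPM in pancreas. No liver library reached the other tissues (-0.95 ± 0.21, adjusted p = 0.013). Its partner Rrm1 (-0.53 ± 0.22, adjusted p = 0.205), the thymidylate synthase Tyms (-0.68 ± 0.26, adjusted p = 0.138) and the thymidine kinase Tk1 (-0.46 ± 0.19, adjusted p = 0.19) were not called.

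The S phase regulators were not called either. Ccne1 (cyclin E1), at 3.05, 5.03, 4.48 and 4.13 CPM in liver, 7.11, 3.32, 16.8 and 11.2 CPM in duodenum and 13.5, 16.2, 12.9 and 9.05 CPM in pancreas, had 1 of the wider differences but also a wide spread among duodenum libraries (-1.20 ± 0.37, adjusted p = 0.0682). E2f1, a transcription factor of S phase genes, was at 21.2, 10.8, 17 and 11.4 CPM in liver, 21.9, 14.1, 22.3 and 27.2 CPM in duodenum and 17, 26.8, 23.7 and 12 CPM in pancreas. Its tissues overlapped (-0.50 ± 0.28, adjusted p = 0.378), as did those of Ccne2, cyclin E2 (-0.70 ± 0.22, adjusted p = 0.0759).

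Mitosis genes were called lower in liver than in duodenum in 3 of 19 cases and higher in 0, where 3.95% of all genes were called lower and 3.37% higher. The median log2 difference of the 19 was -0.56, with all 19 below 0, against 0.10 over all genes. For 3 of 19 the liver libraries all lay below the duodenum libraries, against 5.9% of all genes. With library totals, 1 of 19 was called lower and 17 of 19 were below 0. The 3 called genes all belong to the kinase and checkpoint group. Birc5 (ENSMUSG00000017716), survivin, of the chromosomal passenger complex, was at 55, 62.8, 39.4 and 42.4 CPM in liver, 70.1, 84.3, 92.5 and 96.4 CPM in duodenum and 62.6, 103, 86 and 71.5 CPM in pancreas. Liver and duodenum did not overlap (-0.78 ± 0.19, adjusted p = 0.0182). Bub1 (ENSMUSG00000027379), a spindle checkpoint kinase, was at 17.9, 15.2, 14.9 and 7.91 CPM in liver, 20.4, 24.7, 38.7 and 24.2 CPM in duodenum and 21.9, 17.6, 29.2 and 16 CPM in pancreas, also without overlap (-0.95 ± 0.27, adjusted p = 0.0466). Aurka (ENSMUSG00000027496), the spindle pole kinase, was at 16.4, 18.8, 9.62 and 12.8 CPM in liver, 19.2, 25, 28 and 30.1 CPM in duodenum and 17.8, 20.6, 19.8 and 11.1 CPM in pancreas, and its highest liver library lay under its lowest duodenum library (-0.83 ± 0.24, adjusted p = 0.0482).

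The textbook markers of dividing cells did not pass in this comparison. Mki67 (ENSMUSG00000031004), which coats mitotic chromosomes and marks cycling cells, was at 53.6, 59.2, 53.3 and 42.5 CPM in liver, 60.2, 51.4, 71.3 and 78.5 CPM in duodenum and 84.9, 96.7, 102 and 71.2 CPM in pancreas. Liver and duodenum overlapped (-0.33 ± 0.16, adjusted p = 0.3). Top2a, the topoisomerase that untangles replicated DNA, was at 126, 143, 112 and 98.8 CPM in liver, 128, 106, 179 and 175 CPM in duodenum and 167, 230.4, 268 and 188 CPM in pancreas, with overlap as well (-0.29 ± 0.19, adjusted p = 0.481). Cdk1, the mitotic kinase, was at 34, 37, 35.2 and 21.3 CPM in liver, 51.8, 29.9, 67.9 and 69.3 CPM in duodenum and 45.1, 68.8, 63.8 and 54.2 CPM in pancreas. Only duodenum 2 fell among its liver libraries (-0.78 ± 0.25, adjusted p = 0.0772).

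Ccnb1 (cyclin B1) was at 44.1, 41.9, 26.6 and 28.2 CPM in liver, 48.4, 23.6, 47.6 and 38.7 CPM in duodenum and 47, 50.5, 46.4 and 32.3 CPM in pancreas, with liver and duodenum interleaved (-0.17 ± 0.24, adjusted p = 0.804). Among the rest, log2 differences ran from -0.66 for Ccna2 to -0.02 for Cenpf. The median difference was -0.33 for Mki67, Top2a and Nusap1, -0.35 for 4 other spindle and kinetochore genes (Kif11, Tpx2, Cenpe, Cenpf) and -0.69 for the 6 kinase and checkpoint genes. The replication median (-0.87) was further from 0 than the mitosis median (-0.56), and that difference between the groups was not tested.

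Single libraries moved the counts of liver against duodenum. Without duodenum 2, 18 replication and 11 mitosis genes were called, all lower. Calls over all genes rose too, to 3268 lower and 1539 higher of 45579, against 1763 and 1502 of 44624 with all libraries. Over the fits without 1 library, 2397 to 4807 of all genes were called. The replication count was 7 without liver 4 or without duodenum 1, and 6 without duodenum 3 or without duodenum 4. The mitosis count was 1 without liver 3, liver 4, duodenum 4 or pancreas 2, and 0 without duodenum 3. The calls of Pcna, Mcm3, Mcm4, Mcm5, Gins2 and Rrm2 held without any 1 library. The call of Birc5 ended without duodenum 3 (adjusted p = 0.0523). That of Mcm6 ended without liver 2, duodenum 3 or duodenum 4 (adjusted p = 0.0539 to 0.0713), and that of Prim1 without liver 4 or duodenum 1, 3 or 4 (0.0518 to 0.0734). Fen1 lost it without liver 2 or 4 or duodenum 1, 3 or 4 (0.0502 to 0.0826). Rfc4 (0.0554 to 0.119) and Mcm2 (0.0821 to 0.123) lost it without liver 1, 2 or 4 or duodenum 1, 3 or 4. Aurka lost it without liver 1, 3 or 4, duodenum 3 or 4 or pancreas 2 (0.0574 to 0.117), and Bub1 without liver 2, 3 or 4, duodenum 3 or 4 or pancreas 2 (0.0569 to 0.157). Their log2 differences were below 0 in each of these fits.

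**Figure D3:**
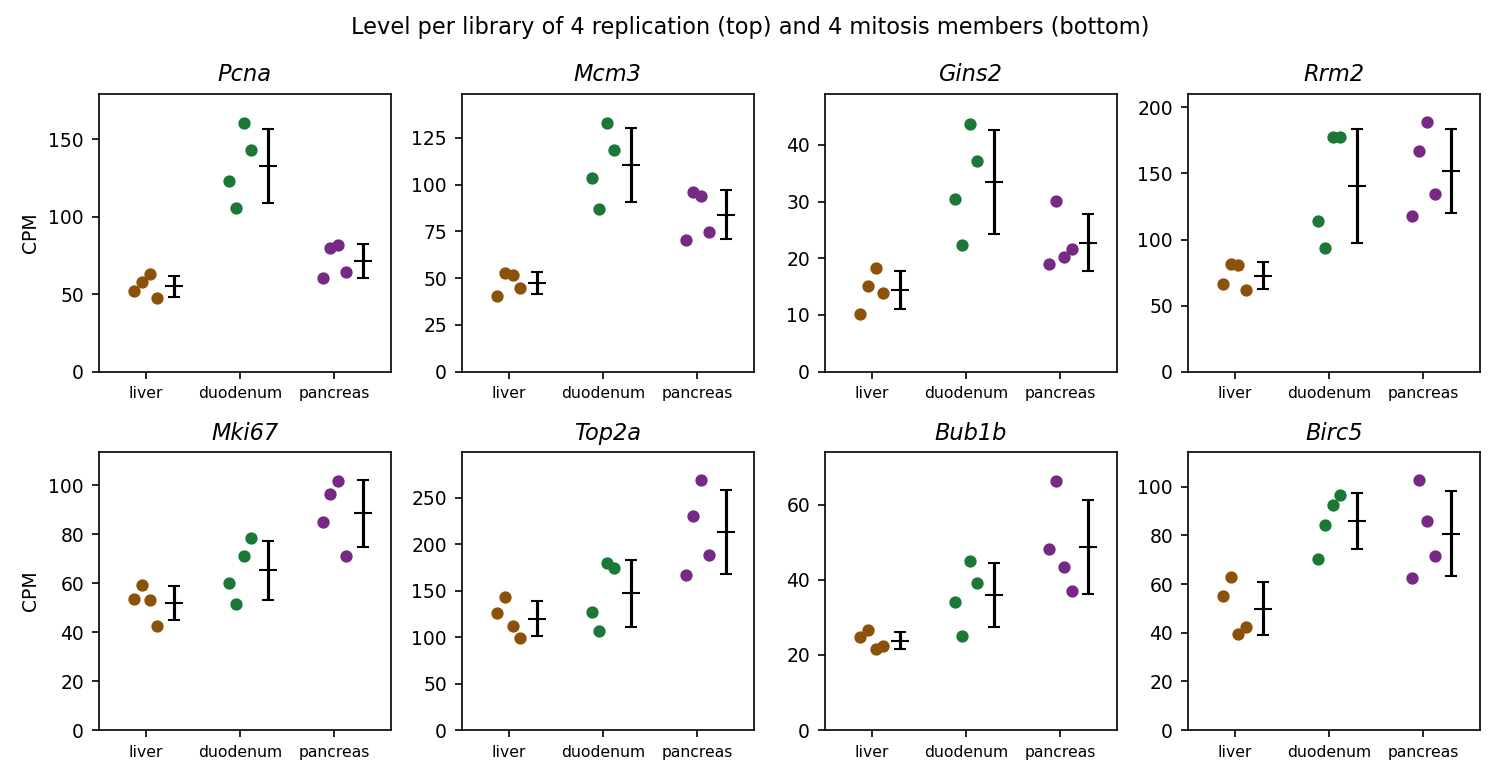
CPM of 4 replication genes (top) and 4 mitosis genes (bottom), with 1 point per library and the mean ± SD of each tissue (n = 4) beside them. Pcna in duodenum (106 to 161 CPM) lies above all other libraries, Mcm3 and Rrm2 in liver lie below all others, and Mki67 in pancreas lies above all liver libraries.

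Pancreas against duodenum gave fewer calls. Of the 22 replication genes 1 was called lower and 0 higher, where 3.94% of all genes were called lower, 3.76% higher and 7.7% in either direction. The median log2 difference was -0.18, with 16 below 0, against 0.09 over all genes. The 1 gene was Pcna, at 71.5 ± 10.8 CPM in pancreas and 133 ± 24 CPM in duodenum (SD, n = 4 each). All pancreas libraries were below all duodenum libraries (-0.90 ± 0.16, adjusted p = 0.00229), an arrangement found for this gene alone among the 22 and for 5.36% of all genes tested.

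The 6 MCM subunits all had log2 differences below 0, from -0.60 (Mcm2) to -0.15 (Mcm7), and none was called. Gins2 (-0.56 ± 0.23, adjusted p = 0.186) and Fen1 (-0.42 ± 0.21, adjusted p = 0.308) were not called either. Rrm2, lower in liver, had a value near 0 between these tissues (0.11 ± 0.21, adjusted p = 0.863), as did Prim1 (0.01 ± 0.23, adjusted p = 0.995). Ccne1 (0.43 ± 0.37, adjusted p = 0.619) and E2f1 (-0.11 ± 0.28, adjusted p = 0.91) overlapped widely.

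None of the 19 mitosis genes was called between pancreas and duodenum by the main edgeR fit (0 higher, 0 lower). At an unadjusted p under 0.05, 5 were higher and 1 lower in pancreas, against 4546 higher and 3954 lower of all 44624 genes tested. DESeq2's Wald test also called 0, and limma-trend on log2(TPM + 1) called 2 higher. Over the 23 alternatives, edgeR with other settings among them, the count ran from 0 to 4. In the main fit the median log2 difference of the 19 was 0.16, with 13 above 0. Cenpf, a kinetochore protein, was the 1 gene whose pancreas libraries all exceeded the duodenum libraries, against 7.12% of all genes. It was at 23.2, 33.6, 19.8 and 18.3 CPM in liver, 23, 19, 30.1 and 24.3 CPM in duodenum and 36.8, 46.8, 34 and 36 CPM in pancreas and missed the threshold (0.67 ± 0.20, adjusted p = 0.0595). Nusap1, which bundles spindle microtubules (0.65 ± 0.26, adjusted p = 0.168), Top2a (0.54 ± 0.19, adjusted p = 0.12) and Mki67 (0.44 ± 0.16, adjusted p = 0.132) also had values above 0. Aurka had the value furthest below 0 (-0.56 ± 0.24, adjusted p = 0.199).

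Without duodenum 2, 6 replication genes were called lower in pancreas, which added Mcm2, Mcm3, Mcm4, Fen1 and Gins2 to Pcna. Without that library the mitosis median turned from 0.16 to -0.09, and 0 mitosis genes were called. Cenpf was called higher in pancreas without duodenum 3 (adjusted p = 0.0441) or without liver 2 (adjusted p = 0.0479), which made the mitosis count 1. The call of Pcna held without any 1 library. Over the fits without 1 library, 2596 to 4716 of all genes were called, against 3437 with all libraries.

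Liver against pancreas had the fewest calls over all genes, 1.11% in either direction and 0.681% lower in liver. Of the 22 replication genes 2 were lower in liver (Mcm3 and Rrm2) and 0 higher. Their median log2 difference was -0.54 and all 22 were below 0, against 0.01 over all genes. Of the 19 mitosis genes 2 were lower (Mki67 and Bub1b) and 0 higher, with a median of -0.74 and all 19 below 0. All 4 liver libraries lay below all 4 pancreas libraries for 11 of the 22 replication genes and 11 of the 19 mitosis genes, against 3.47% of all genes tested. They lay above for 0 of the 41, against 3.11%.

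Mcm3 differed by -0.82 ± 0.16, adjusted p = 0.0191 and Rrm2 by -1.07 ± 0.21, adjusted p = 0.0243. Mki67, at 52.1 ± 6.95 CPM in liver and 88.7 ± 13.6 CPM in pancreas (SD, n = 4 each), was lower without overlap (-0.77 ± 0.16, adjusted p = 0.0345). Bub1b (ENSMUSG00000040084), the checkpoint kinase BubR1, was at 24.7, 26.8, 21.6 and 22.3 CPM in liver, 34.1, 25.1, 45.1 and 39.2 CPM in duodenum and 48.3, 66.3, 43.4 and 37 CPM in pancreas. Its 4 liver libraries lay under all pancreas libraries (-1.03 ± 0.20, adjusted p = 0.0203).

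Several other genes had wide differences that missed the threshold. Ccne1 had the difference furthest from 0 (-1.63 ± 0.37, adjusted p = 0.0561), with all liver libraries below all pancreas libraries. Ccna2, cyclin A2, which serves both phases (-1.22 ± 0.31, adjusted p = 0.0954), Top2a (-0.83 ± 0.19, adjusted p = 0.0612), Cdk1 (-0.86 ± 0.25, adjusted p = 0.156) and Prim1 (-0.94 ± 0.23, adjusted p = 0.0724) showed the same arrangement. Pcna, the leading gene of both comparisons with duodenum, was not called and its tissues overlapped (-0.37 ± 0.16, adjusted p = 0.459). Neither were Mcm2 (-0.38 ± 0.27, adjusted p = 0.83), E2f1 (-0.40 ± 0.28, adjusted p = 0.825) and Ccnb1 (-0.32 ± 0.24, adjusted p = 0.837). At an unadjusted p under 0.05, 17 replication and 15 mitosis genes were lower in liver than in pancreas and 0 were higher. Of all 44624 genes tested, 2218 were lower and 1802 higher at that threshold.

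Each of these 4 calls ended without 1 or another library. Over the fits without 1 library, 343 to 749 of all genes were called, against 494 with all libraries. The replication count was 0 without liver 1, liver 3, liver 4, pancreas 2 or pancreas 3, 1 without liver 2, 4 without duodenum 3 and 6 without duodenum 2. The mitosis count was 0 without liver 1, liver 3, liver 4, pancreas 1 or pancreas 2, 1 without liver 2, duodenum 1 or pancreas 3, and 8 without duodenum 2. Mcm3 lost its call without liver 1, 3 or 4 or pancreas 2 or 3 (adjusted p = 0.0501 to 0.0874), and Rrm2 without any 1 liver library or pancreas 2 or 3 (0.0544 to 0.097). Bub1b lost it without any 1 liver library or pancreas 1 or 2 (0.0511 to 0.0912), and Mki67 without any 1 liver library, duodenum 1 or pancreas 1, 2 or 3 (0.0546 to 0.128). All 41 values were below 0 in each of the 23 alternatives tried.

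**Figure D4:**
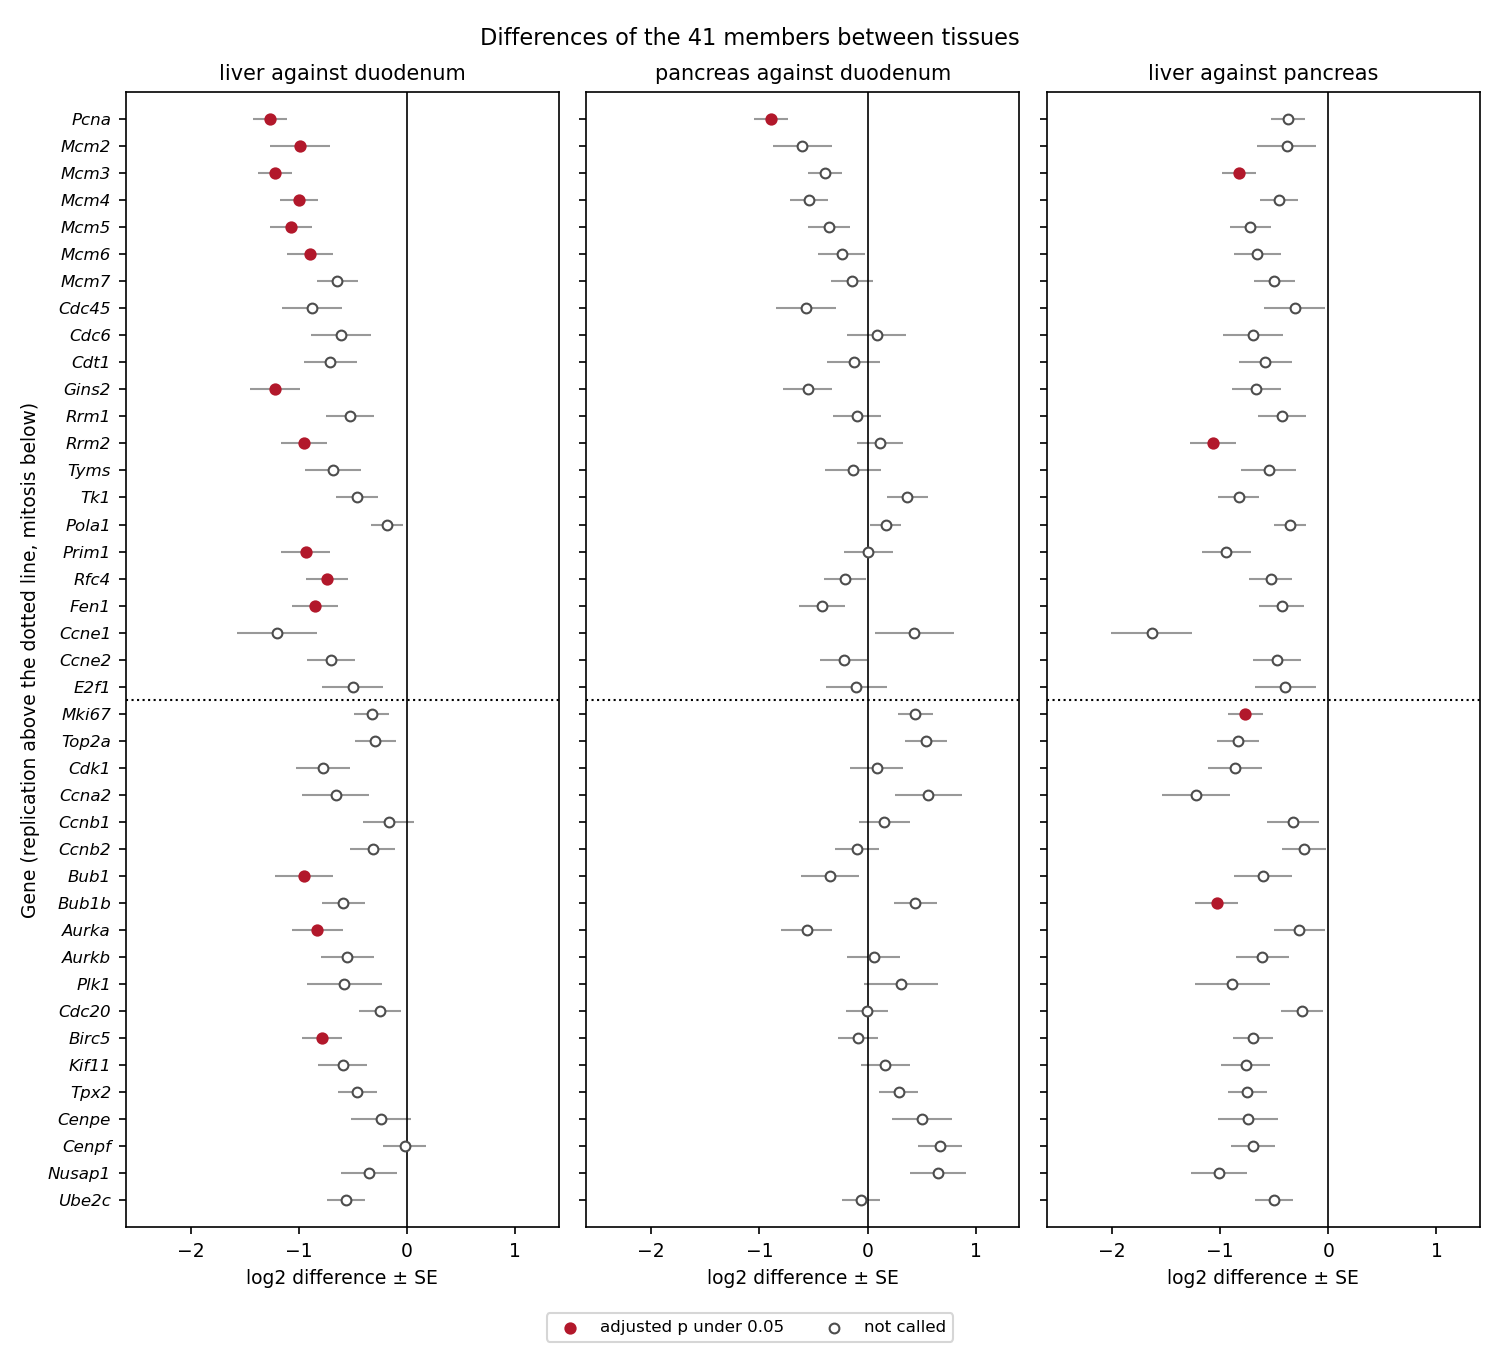
Log2 difference with its standard error for each of the 41 genes in each of the 3 comparisons, filled where the adjusted p was under 0.05. Replication genes reach -1.27 in liver against duodenum, mitosis genes range from -0.56 to 0.67 in pancreas against duodenum, and all 41 are below 0 in liver against pancreas.

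Within a tissue, many of the genes had their lowest or highest CPM in the same library. Duodenum 2 was the lowest duodenum library for 21 of 22 replication and 16 of 19 mitosis genes, and duodenum 3 the highest for 16 and 9. In pancreas, library 1 was lowest for 16 replication but only 6 mitosis genes, and library 4 was lowest for 9 mitosis genes. Liver 4 was the lowest liver library for 11 and 11 genes, and liver 2 the highest for 12 mitosis genes. Duodenum 2 and pancreas 1 also had the lowest cDC1 marker sums in CPM of their tissues. Their TMM factors were the highest there, 1.09 and 1.13, against 0.887 to 0.924 and 0.895 to 1.02 in the other libraries of those tissues and 0.986 to 1.1 in liver. A higher factor lowers every CPM of a library. In TPM the cDC1 sum was lowest in duodenum 2 and in pancreas 4 (1349, against 1356 in pancreas 1). The mitosis sum of pancreas 1 in TPM (521) lay within the range of its tissue (480.1 to 607). The part of the marker sums in the results was not tested. Leaving both libraries out gave 19 replication and 9 mitosis calls in liver against duodenum, 2 and 0 in pancreas against duodenum and 7 and 5 in liver against pancreas. In that fit 3386 of all 44853 genes tested were lower in liver than in duodenum, against 1763 of 44624 with all libraries. For genes lowest in duodenum 2 among the duodenum libraries, leaving it out raises the duodenum mean. A wider difference from liver follows from that choice and is not a separate result.

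Other genes of the same pathways were read from lists written from general knowledge, with earlier results of these data known. Over all genes tested, 3.95% were called lower in liver than in duodenum and 3.37% higher, with a median log2 difference of 0.10. Of 43 other replication genes, 12 were lower in liver than in duodenum and 0 higher, with a median log2 difference of -0.46. They included Tipin, of the fork protection complex (-1.34 ± 0.23, adjusted p = 0.00247), Gins1, another GINS subunit (-1.33 ± 0.25, adjusted p = 0.00418), and Asf1b, a histone chaperone (-0.97 ± 0.18, adjusted p = 0.00429). Of 45 other mitosis genes, 6 were lower and 0 higher, with a median of -0.43. Cks1b, a small partner of cyclin-dependent kinases, led them (-1.09 ± 0.17, adjusted p = 0.00129), followed by Cks2 (-0.67 ± 0.15, adjusted p = 0.0108) and Cdca8, of the passenger complex (-0.76 ± 0.18, adjusted p = 0.0203). Without duodenum 2 the counts were 25 and 16, where 3268 of all 45579 genes tested were called lower. The replication count was 6 without liver 1, 7 without liver 4 and 5 without duodenum 3 or duodenum 4, and the mitosis count was 3 without liver 3 or liver 4 and 2 without duodenum 3 or duodenum 4. The call of Cdca8 ended without duodenum 1, 3 or 4 (adjusted p = 0.0514 to 0.0648), and those of Tipin, Gins1, Asf1b, Cks1b and Cks2 held without any 1 library. Of 19 S phase checkpoint and repair genes 1 was lower in liver and 0 higher, near the 3.95% of all genes called lower. It was Bard1, the partner of Brca1 (-1.004 ± 0.23, adjusted p = 0.0166). Without liver 2, duodenum 1, duodenum 2 or pancreas 3 there were 2.

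In pancreas against duodenum, 3.76% of all genes were called higher and 3.94% lower. Of the 43 other replication genes, 1 was higher (Timeless, 0.51 ± 0.14, adjusted p = 0.035) and 1 lower (Orc1, an origin recognition subunit, -0.82 ± 0.22, adjusted p = 0.0354). Of the other mitosis genes Kif18b, a spindle motor, was higher (1.18 ± 0.33, adjusted p = 0.0442) and Cks1b lower (-0.91 ± 0.17, adjusted p = 0.00403). Without 1 library, the calls of Timeless ended in 11 of 12 fits (all but that without duodenum 3, adjusted p = 0.0603 to 0.14), of Kif18b in 10 (all but those without duodenum 3 or pancreas 2, 0.0544 to 0.158) and of Orc1 in 5 (without duodenum 1 or 3 or pancreas 1, 2 or 4, 0.0569 to 0.107). Without duodenum 2, 8 other replication genes were lower in pancreas and 0 higher.

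In liver against pancreas, 2 other replication genes and 5 other mitosis genes were lower and 0 higher, where 0.681% of all genes were called lower and 0.426% higher. The replication genes were Asf1b (-1.02 ± 0.18, adjusted p = 0.0116) and Clspn, a checkpoint mediator (-1.35 ± 0.27, adjusted p = 0.0225). Asf1b lost its call without liver 3 (0.0506) and Clspn without liver 1, 3 or 4 or pancreas 2 or 3 (0.071 to 0.0874). The mitosis genes with the lowest adjusted p were Incenp, of the passenger complex (-0.90 ± 0.16, adjusted p = 0.0116), Racgap1, needed for cytokinesis (-1.11 ± 0.20, adjusted p = 0.0128), and Ckap2l, a spindle protein (-0.90 ± 0.17, adjusted p = 0.0144). Without duodenum 2 the counts were 4 and 9. Without liver 3 they were 0 and 1, without liver 4 both were 1, without pancreas 2 they were 1 and 2, and without pancreas 3 they were 1 and 3. Without liver 1 the replication count was 1. Racgap1 lost its call without liver 3 (adjusted p = 0.05002), Incenp without liver 4 (0.0529) and Ckap2l without liver 3 or 4 or pancreas 1 or 2 (0.0501 to 0.0675). The medians over the 45 were 0.25 in pancreas against duodenum and -0.62 in liver against pancreas.

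Genes that govern entry into the cycle and genes that restrain it were counted in the same way. Of 20 entry genes, 2 were lower and 0 higher in liver than in duodenum, with a median log2 difference of -0.04, where 3.95% of all genes were called lower. They were E2f3 (-1.17 ± 0.23, adjusted p = 0.00642) and the phosphatase Cdc25a (-0.58 ± 0.16, adjusted p = 0.0442). In pancreas against duodenum, where 7.7% of all genes were called in either direction, 4 of the 20 were called. Cdc25a (-0.82 ± 0.16, adjusted p = 0.00518) and E2f3 (-0.89 ± 0.23, adjusted p = 0.0294) were lower, while Tfdp2, a partner of E2F factors (0.89 ± 0.21, adjusted p = 0.0139), and the kinase Cdk6 (0.78 ± 0.19, adjusted p = 0.0192) were higher. Without duodenum 2, 7 entry genes were lower in liver, and 5 lower and 2 higher in pancreas, than in duodenum. Cdc25a lost its call in liver in 7 fits (without liver 1, 2 or 4, duodenum 1, 3 or 4 or pancreas 2, adjusted p = 0.0547 to 0.137), Tfdp2 in 3 (without duodenum 4 or pancreas 1 or 3, 0.0528 to 0.0548), E2f3 in pancreas in 4 (without duodenum 3 or 4 or pancreas 1 or 2, 0.0752 to 0.102) and Cdk6 without any 1 pancreas library (0.0542 to 0.0666). Liver against pancreas (1.11% of all genes called) gave 3 calls, E2f2 (-1.01 ± 0.19, adjusted p = 0.0169) and Cdk6 lower and Mycl, a Myc family member used by cDC1 (0.90 ± 0.18, adjusted p = 0.0218), higher. These calls ended without liver 3, liver 4 or pancreas 2 for E2f2 (0.0556 to 0.0712) and without liver 1, 2 or 3 or pancreas 1, 2 or 4 for Mycl (0.056 to 0.0845). That of Cdk6 ended without any 1 liver or pancreas library (0.0544 to 0.109).

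Of 20 brakes, 5 differed between liver and duodenum, where 7.32% of all genes did. Cdkn1a (p21), an inhibitor of cyclin-dependent kinases, was above duodenum in liver (1.52 ± 0.19, adjusted p = 0.000168) and in pancreas (0.99 ± 0.19, adjusted p = 0.00382). Btg2, an antiproliferative gene, was lower in liver (-1.88 ± 0.15, adjusted p = 3.43e-06) and in pancreas (-1.41 ± 0.15, adjusted p = 2.62e-05). Cdkn1b (p27), a related inhibitor, was also lower in liver (-0.75 ± 0.13, adjusted p = 0.00249) and in pancreas (-0.55 ± 0.13, adjusted p = 0.0171). Btg1 (-0.88 ± 0.14, adjusted p = 0.00162) and Lin52 (-0.72 ± 0.17, adjusted p = 0.0211) were lower in liver, and Cdkn2b was higher in pancreas (3.17 ± 0.86, adjusted p = 0.0365). The calls of Cdkn1a, Btg2 and Btg1 held without any 1 library, and that of Cdkn1b in pancreas ended without duodenum 1 (adjusted p = 0.07). Cdkn2b lost its call in 9 of 12 fits (all but those without liver 1, liver 2 or duodenum 3, adjusted p = 0.0594 to 0.101), and Lin52 without duodenum 3 (0.0707). In pancreas against duodenum the count of brakes was 2 without duodenum 1 and 7 without duodenum 2. Between liver and pancreas edgeR called 0 of the 20, and between 0 and 1 were called over the alternatives. At an unadjusted p under 0.05, 1 was higher and 4 lower, against 1802 higher and 2218 lower of all 44624 genes tested.

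Markers of other cells also differed between tissues. Of all genes tested, 3.95% were called lower in liver than in duodenum and 3.94% lower in pancreas than in duodenum. Plasma cell markers (10 genes) summed to 5945 to 8964 CPM in duodenum, 233 to 353 in liver and 234 to 353 in pancreas, and 6 of 10 were lower in liver and 7 of 10 in pancreas than in duodenum. Most of the duodenum sum was Igha and Jchain (means of 5538 and 1521 CPM). Most of the other sums was Xbp1 (means of 98.1 in liver and 112 in pancreas, 132 in duodenum) and Edem1 (143 and 101.5, 209 in duodenum). In duodenum 1 to 4 the plasma cell marker sum was 5945, 8394, 6436 and 8964 CPM, and the sum of the 22 replication genes was 1323, 990.1, 1811 and 1624 CPM. B cell markers summed to 28.1 to 33.2 CPM in duodenum, 13.3 to 16.6 in liver and 13.04 to 24.6 in pancreas, and 1 of 10 was lower in each of those 2 tissues than in duodenum. T cell markers summed to 23.2 to 29.7, 11.7 to 16.1 and 11.6 to 13.6 CPM, and 3 of 10 were lower in liver and 2 of 10 in pancreas than in duodenum. Cd3e and 5 others had means under 1 CPM in every tissue, Cd3d lay at 5.04 to 7.12 CPM over all libraries, and Cd8b1 had duodenum, liver and pancreas means of 11.45, 1.88 and 1.22 CPM. Intestinal epithelium markers summed to 26.9 to 49.04 CPM in duodenum, 10.2 to 15.8 in liver and 48.5 to 54.9 in pancreas, with Epcam alone at means of 27.1, 5.82 and 39.8 CPM, and 7 of the 14 had means under 1 CPM in every tissue.

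For the counts that follow, 3.37% of all genes tested were called higher and 3.95% lower in liver than in duodenum. In pancreas against duodenum 3.76% were called higher, and in liver against pancreas 0.426% higher and 0.681% lower. Pancreatic acinar markers reached 727 to 4834 CPM in pancreas and 14.5 at most elsewhere. Hepatocyte markers summed to 386 to 454 CPM in pancreas, 170.1 to 265 in liver and 42.8 to 53.1 in duodenum, most of it Trf (means of 415, 176 and 46.4 CPM). Of the 10, Trf was lower and 6 were higher in liver than in pancreas, and 7 were higher in liver than in duodenum, with Alb at means of 11.06 CPM in liver, 0.244 in pancreas and 0.307 in duodenum. Macrophage markers summed to 198 to 327 CPM in duodenum, 174 to 225 in liver and 174 to 234 in pancreas, most of it Cd68 (means of 263, 165 and 182 CPM). In liver against duodenum 1 of the 10 was higher and 2 lower, while 8 of 10 had a log2 difference above 0, with a median of 1.60, among them Csf1r at means of 18.4 and 5.26 CPM. Many of these values were near the floor. Of the 10 macrophage markers, 4 had means under 1 CPM in every tissue, and C1qa, C1qb and C1qc had duodenum means of 0.627, 0.661 and 0.852 CPM. A list of 10 DC maturation genes summed to 655 to 1081 CPM in liver, 916 to 1836 in pancreas and 233 to 387 in duodenum, and against duodenum 8 of them were higher in liver and 7 in pancreas. The part of these cells and of maturation in the differences was not tested.

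The printed promoters can be set beside these values. Of the 7 replication genes with an E2F word, 3 were lower in liver than in duodenum (Mcm3, Mcm5 and Mcm6), as were 6 of the 12 without one. Of the 12 mitosis genes with a CHR word, 2 were lower (Aurka and Bub1), as was 1 of the 4 without one. No test was made of these shares.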

How the data were processed

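PolyA RNA of sorted migratory DCs was measured by bulk sequencing in 12 libraries. For 55401 genes, estimated counts and TPM were deposited by the authors as separate tables. They name kallisto, without a version, and build GRCm39, per the submitters' processing notes. How transcripts were indexed, annotated and summed to genes, and strandedness: not given in the sources used here. For genes above 1 TPM in every library (12632), deposited count over TPM was the product of a gene factor and a library factor, within 1.1e-09 on the log2 scale, the form of counts rebuilt from TPM. The TPM table had 3 empty unnamed columns, and 0 columns of values lacked a sample. Single-cell data were not used here.

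Here, estimated counts were rounded to whole numbers. The test was edgeR 4.0.16 (R 4.3.3): filterByExpr with a minimum count of 10 (44624 genes), TMM scaling, 1 robust quasi-likelihood fit to all 12 libraries without a block, and calls at a Benjamini-Hochberg adjusted p under 0.05 over all genes tested. SE is the absolute log2 difference over the square root of F. CPM was computed here with TMM factors. The comparison was tested on simulated data, where 47% of 66 genes changed 4-fold and 10.4% of 67 changed 2-fold between liver and duodenum were called, over all levels of expression. Of 67 genes changed 1.5-fold, 0 were called. These shares mix genes of all levels, so they do not give the share called among genes at the levels described here. A gene that was not called is not thereby shown to be unchanged. The 23 alternatives used DESeq2 1.42.0, limma 3.58.1 on TPM, other scalings and filters, a replicate block, and fits without libraries. Promoters came from RefSeq's table for GRCm38.p6, another build than the files', so coordinates are RefSeq's.

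The genes and lists were chosen with earlier results of these data known. Values by library are given for each called gene of the 41 and for Pcna, Mcm2, E2f1, Ccne1, Mki67, Top2a, Cdk1 and Ccnb1. For each other cell cycle list and comparison, the called genes of lowest adjusted p, up to 3, are given by log2 difference. E2f3 in pancreas, Cdkn1b in liver, Lin52 and Cdkn2b fall outside that rule and were named to complete counts of 5 or fewer. Cenpf, given by library, was chosen after its values were seen. Whether the pools of 1 tissue were processed apart is not given, so p-values measure the spread between these libraries.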

Additional observations from a re-analysis of the deposited data

Results flagged for a closer look

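In 129 groups of 4 libraries (each gene and each group's sum in each tissue), the library furthest from the others was compared with the range of its group, and chance sets about 1 in 20 such groups apart. There were 2. Pola1, the priming polymerase, was at 22.45 CPM in liver 4, against 29.07 to 30.34 CPM in the other liver libraries. Ccne2, cyclin E2, was at 10.78 CPM in duodenum 1, against 14.57 to 15.33 CPM in the other duodenum libraries. Neither gene was called between tissues with all libraries.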

How the results depend on the processing

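Of 2829 recomputed values for the 41 genes, 2601 kept their side of the threshold, 92 lost a call, 136 gained one and 0 reversed. Of 19 calls, 7 held in each of the 23 alternatives (Gins2, Mcm3, Mcm4, Mcm5, Pcna and Rrm2 in liver against duodenum, and Pcna in pancreas against duodenum). Among uncalled values the sign changed 62 times in pancreas against duodenum, 10 times in liver against duodenum and 0 times in liver against pancreas.

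Counts of replication and mitosis genes called follow, in that order. For liver against duodenum (11 and 3), they were 17 and 6 with DESeq2's Wald test and with a mean of at least 1 CPM. The mitosis count was 1 with library totals, with either TPM pseudocount (1 or 0.1) and with only the 2 tissues compared. For pancreas against duodenum (1 and 0), they were 2 and 0 with the Wald test and 3 and 4 with the CPM minimum, and the mitosis count was 4 with library totals and 2 with either pseudocount. For liver against pancreas (2 and 2), they were 1 and 1 with DESeq2 size factors, 6 and 5 with library totals, 5 and 7 with the Wald test, 7 and 10 with the CPM minimum and 5 and 7 with only those tissues. The cause of these shifts was not tested. Calls over all genes moved as well. In liver against duodenum they were 3265 of 44624 in the main fit. The Wald test gave 5133 of 30685 and the CPM minimum 4569 of 17452. In liver against pancreas these 3 fits gave 494 of 44624, 1171 of 29824 and 946 of 17452. Library totals gave 820 there, DESeq2 size factors 425 and only those tissues 615. In pancreas against duodenum the main fit called 3437, and the 23 alternatives 1712 to 5074.

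Without each library in turn the counts ran from 6 to 18 and 0 to 11, from 1 to 6 and 0 to 1, and from 0 to 6 and 0 to 8. Calls over all genes ran from 2397 to 4807, from 2596 to 4716 and from 343 to 749. Without liver 2, pancreas 3 and pancreas 4 together, the replication count was 7 in liver against duodenum, and both were 0 in liver against pancreas. Without duodenum 2 and pancreas 1, counts were 19 and 9, 2 and 0, and 7 and 5, and the mitosis median in pancreas against duodenum was -0.06 in place of 0.16. Of all 44853 genes tested there, 3386 were lower and 1527 higher in liver than in duodenum.

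In the labels, same-numbered libraries of different tissues shared a number, and these values do not show whether they shared mice. Their deviations correlated at -0.041 to 0.092, and 2 or 3 of 8 libraries per comparison correlated best with their own number. Number 3 had the highest value in liver against duodenum (0.062), pancreas against duodenum (0.092) and liver against pancreas (0.061). With the replicate number as a block, the counts were 11 and 2, 1 and 0, and 2 and 0.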
